A study of Mus musculus with 2 samples.

Results

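The genes described here are 10 genes of T lymphocytes chosen by name: the CD3 chains Cd3e, Cd3g and Cd3d, the coreceptors Cd4, Cd8a and Cd8b1, the kinases Lck and Zap70, the costimulatory receptor Cd28 and the transcription factor gene Foxp3. Of the 10, 7 had values among the 20002 genes measured. Cd3d, Cd8b1 and Foxp3 were not analysed here. RNA-seq of whole kidney was performed for control mice and for mice in which Regnase-2, a ribonuclease that degrades mRNA, was targeted in the proximal tubules (Reg-2 CKO). Each group had 1 library, so no difference between them has a replicate check. The comparison asks which kidney transcripts differ when Regnase-2 is lowered.

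The labels name a conditional knockout of proximal tubules, whereas the methods describe a knockdown: AAV9, a viral vector, carried shRNA against Regnase-2 and was given through the tail vein at 11 weeks of age. The AAV9 methods name empty vector for the control mice and the RNA-seq methods name control shRNA. Age at harvest was 14 weeks in the RNA-seq methods and 16 weeks in the AAV9 methods. The vector was stated to prefer proximal tubules, so other kidney cells were not the intended target, and RNA came from left kidney tissue in which cells were not sorted. C57BL/6J mice were used in the study. The sex of these mice, and whether a library came from 1 mouse or from a pool, were not given in the sources used here. Depth was 38851231 control reads and 43588721 in the Reg-2 CKO library, recovered from the deposited values by removing a constant from each column.

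Zc3h12b, which encodes Regnase-2, had 47 control reads and 59 Reg-2 CKO reads. The log2 ratio of Zc3h12b was -0.25 (95% Clopper-Pearson interval -0.83 to 0.33). It turned to 0.16 when the library totals were made equal and to 0.42 from the unmodified values, that is, as deposited and with no subtraction or scaling. The target gene therefore does not check the labels at this depth, and the group is called the CKO-labelled library, by its label alone. All intervals given for reads cover counting error only, and they hold only as far as the values left after removing the constant are unscaled reads. Kidney markers were abundant in both libraries. Slc34a1, the phosphate transporter of the proximal tubule, had 147064 and 98124 reads, and Umod, the uromodulin gene of the thick ascending limb, had 90047 and 187056.

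A T cell recognises a peptide on an MHC molecule through the alpha and beta chains of its receptor, which have no signalling tails of their own and pass the signal through the CD3 gamma, delta and epsilon chains and the zeta chain encoded by Cd247. CD4 binds MHC class II and CD8 binds MHC class I, and each brings the kinase Lck to the receptor, where it phosphorylates the CD3 and zeta tails and the ZAP-70 bound there. CD28 binds CD80 and CD86 on antigen-presenting cells and supplies costimulation, and FOXP3 defines regulatory T cells; few T cells reside in the healthy kidney, and more enter it in inflammation.

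All 7 genes with values were at least 2-fold higher in the CKO-labelled library. For comparison, 17469 genes reached 10 scaled reads in 1 library or both, and 13.4% of them were past 2-fold upward and 5.35% past 2-fold downward. Genes with few reads were higher more often: of 3855 genes with a mean level in the range of the T cell genes, from 8.33 to 67.3 scaled reads, 26.8% were at least 2-fold higher. The count for the T cell genes has to be read against that share. Of the 7, 3 had at least 10 reads in the control library, and Cd3e, Cd8a, Zap70 and Cd28 reached this minimum only in the CKO-labelled library, where they are high. Dropping the minimum could not change the count, since all 7 had passed it.

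Summed over the 7 genes, the control library had 81 reads and the CKO-labelled library had 477. Divided by the library total, this was 2.09 CPM in the control (95% Poisson interval 1.66 to 2.59) against 10.9 CPM in the CKO-labelled library (9.98 to 12.0). The CKO-labelled reads were brought to the control scale with the factor 0.667, which is the median ratio of control reads to CKO-labelled reads, and the sum was then 3.93-fold higher (95% Clopper-Pearson interval 3.10 to 5.03). The median log2 ratio of the 7 genes was 1.85, computed with a pseudocount of 1 added to the scaled reads, beside 0.30 for the genes of like mean level. In RNA from whole tissue, more T cells and more of these transcripts per cell cannot be told apart.

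**Figure D1:**
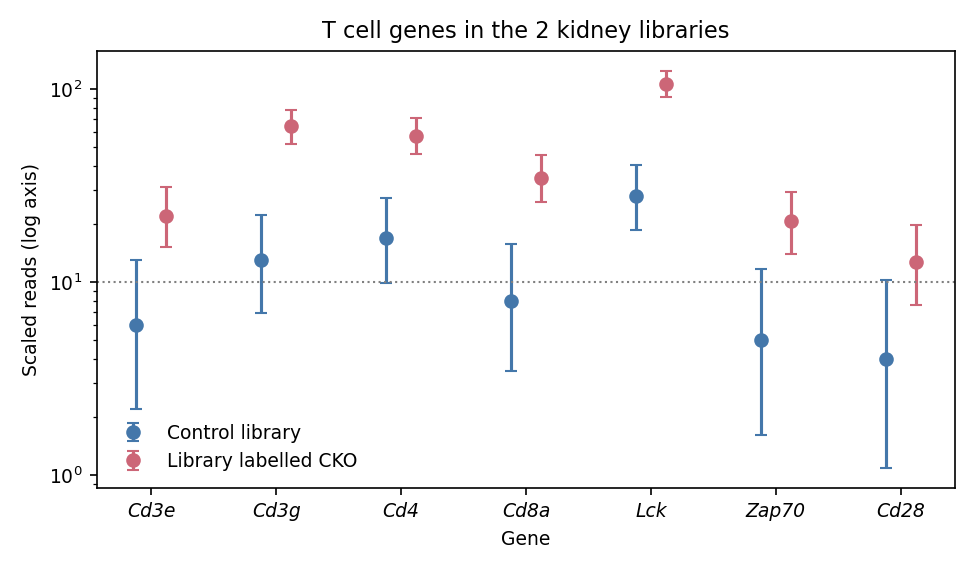
Reads of the 7 T cell genes in the control library and scaled reads in the CKO-labelled library, on a log axis, with 95% Poisson intervals for counting error as bars and the minimum of 10 scaled reads as a dotted line. Each gene is higher in the CKO-labelled library, and the control values run from 4 reads for Cd28 to 28 for Lck.

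Cd3e encodes the epsilon chain, which pairs with the delta and the gamma chain, and had 6 control reads and 33 in the CKO-labelled library. This was 3.67-fold higher after scaling, with an interval from 1.52 to 10.7. Cd3g, the gamma chain, had 13 and 96 reads and was 4.92-fold higher (2.75 to 9.58). Both CD3 chains were thus higher in the CKO-labelled library, and their intervals overlapped. On chromosome 9 of GRCm38.p6 the CD3 genes are neighbours: Cd3g (gene ID 12502) spans 44969572 to 44980431 on the minus strand and Cd3e (gene ID 12501) spans 44998735 to 45009663 on the minus strand. Cd3d lies between them, and the whole cluster covers 40092 bases. GENCODE M21 places Gm48719, an antisense gene, and Gm48720, on the strand of Cd3e, over Cd3e. The libraries came from a kit that marks strand, but the strand setting of the counting was not given in the sources used here, so reads of Gm48719 and Cd3e cannot be told apart, and reads where Gm48720 and Cd3e overlap cannot be told apart by strand at all. The ratio of Cd3g to Cd3e reads was 217% in the control library and 291% in the CKO-labelled library, a 1.34-fold change with an interval from 0.385 to 4.16. A change in the balance of these 2 chains was not detectable with 6 control reads of Cd3e.

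The promoters of Cd3e and Cd3g are shown because these neighbouring genes were higher together. RefSeq windows of 300 bases around gene starts on GRCm38.p6 matched 7 of the 10 genes, with 11 windows, and Cd4, Cd28 and Cd8b1 had no entry. Of these windows, 8 belong to 5 genes with values, Cd3e, Cd3g, Cd8a, Lck and Zap70, and the others to Cd3d and Foxp3. Each is written 5′ to 3′ on the strand of the gene. Capitals mark AGGAAG, a core of ETS family motifs, and TGTGGT, a core of RUNX family motifs, searched on both strands, so that the ETS core can also read CTTCCT; the motifs did not overlap in these windows.
Cd3e, chr9:45009562-45009861, minus strand: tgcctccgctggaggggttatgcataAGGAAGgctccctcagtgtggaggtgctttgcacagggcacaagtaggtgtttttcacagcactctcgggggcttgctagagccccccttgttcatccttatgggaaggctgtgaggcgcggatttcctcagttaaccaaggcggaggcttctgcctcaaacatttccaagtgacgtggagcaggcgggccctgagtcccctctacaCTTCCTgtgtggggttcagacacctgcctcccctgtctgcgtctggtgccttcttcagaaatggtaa
Cd3g, chr9:44980382-44980681, minus strand: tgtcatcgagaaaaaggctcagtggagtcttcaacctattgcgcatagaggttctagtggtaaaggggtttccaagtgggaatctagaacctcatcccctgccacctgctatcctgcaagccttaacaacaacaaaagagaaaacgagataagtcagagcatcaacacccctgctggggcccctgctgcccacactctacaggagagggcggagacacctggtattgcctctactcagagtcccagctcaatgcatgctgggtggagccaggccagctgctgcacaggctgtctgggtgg
The ETS letters occurred at positions 27 and 234 of the Cd3e window, counted from its 5′ end, and neither motif occurred in the Cd3g window. Among all 32851 windows, 35.4% held the ETS letters and 16.8% the RUNX letters, beside 5 and 2 of the 8 windows of T cell genes with values. The letters AGATAA of GATA factors were in 1 of the 8 windows and in 11.2% of all windows, and the E-box CAGNTG, which E proteins bind, was in 7 of the 8 and in 51.4% of all. A match describes the letters of a window and does not show binding.

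Cd4, the coreceptor of helper and regulatory T cells, had 17 control reads and 86 in the CKO-labelled library. It was 3.37-fold higher, with an interval from 1.99 to 6.06. Cd8a, the alpha chain of the coreceptor of cytotoxic T cells, had 8 and 52 reads and was 4.33-fold higher (2.04 to 10.6). Both coreceptor genes were higher, the helper and the cytotoxic one alike. Cd4 (gene ID 12504) lies on chromosome 6 from 124864693 to 124888247, and Cd8a (gene ID 12525) on the same chromosome from 71373427 to 71379171. The ratio of Cd8a to Cd4 reads within a library, which no scaling changes, was 47.1% in the control library and 60.5% in the CKO-labelled library. The change of 1.29-fold had an interval from 0.483 to 3.69, so a shift between the coreceptors was not detectable at this depth.

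Neither coreceptor is confined to T cells, since some dendritic cells of the mouse carry the CD8 alpha chain or CD4. Genes of the dendritic cells that carry CD8 alpha were higher too: Xcr1 had 7 and 63 reads, and Clec9a had 28 and 127. Both were chosen after their values were seen. Their part in the Cd8a result was not tested. Cd8b1, whose product is more restricted to T cells, was not analysed here.

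Lck, the kinase that the coreceptors carry, had 28 control reads and 160 in the CKO-labelled library. It was 3.81-fold higher, with an interval from 2.54 to 5.91, the narrowest on the fold scale among the 7 genes. Zap70, which docks on the phosphorylated CD3 and zeta tails, had 5 and 31 reads and was 4.13-fold higher (1.59 to 13.6). Both kinases of the proximal signal were higher together. Lck made up 34.6% of the reads of the 7 genes in the control library and 33.5% in the CKO-labelled library, so the summed level leans on this gene in either library. Zap70 reads were 17.9% of the Lck reads in the control library, against 19.4% in the CKO-labelled library, a 1.08-fold change with an interval from 0.372 to 3.88. NK cells also express both kinases. Lck (gene ID 16818) lies on chromosome 4 from 129548344 to 129573641 on the minus strand, and Zap70 (gene ID 22637) on chromosome 1 from 36761798 to 36782821 on the plus strand. Mir8119 is annotated within Lck, and the pseudogene Gm18828 overlaps Zap70 on the opposite strand.

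The Lck gene has a distal and a proximal promoter. The window that lies farther from the coding sequence is shown because Lck had the most reads of the T cell genes and this window the most ETS matches of the 8.
Lck, chr4:129573592-129573891, minus strand: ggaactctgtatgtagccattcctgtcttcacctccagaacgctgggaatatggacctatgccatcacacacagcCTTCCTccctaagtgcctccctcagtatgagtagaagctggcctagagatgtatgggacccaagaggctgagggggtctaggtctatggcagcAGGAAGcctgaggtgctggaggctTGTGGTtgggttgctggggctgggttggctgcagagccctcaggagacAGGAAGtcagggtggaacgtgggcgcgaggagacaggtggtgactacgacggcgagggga
ETS letters occurred at positions 76, 169 and 241 and RUNX letters at position 193. The other Lck window, chr4:129558323-129558622, held the ETS letters at position 137 and no RUNX letters. Reads were counted per gene, so the use of either start was not measured.

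Cd28, the costimulatory receptor, had 4 control reads and 19 in the CKO-labelled library, the fewest of the 7 genes. It was 3.17-fold higher, and its interval, from 1.05 to 12.8, came closest to no difference. With a pseudocount of 10 its log2 ratio was 0.70 and from the unmodified values 0.84, under 2-fold in each case. Cd28 (gene ID 12487) lies on chromosome 1 from 60746388 to 60773359. The ratio of Cd28 to Cd3e reads was 66.7% in the control library and 57.6% in the CKO-labelled library, a 0.864-fold change with an interval from 0.178 to 4.72.

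By log2 ratio, the T cell genes ran from Cd28 at 1.45 through Cd4 at 1.70, Cd3e at 1.72, Zap70 at 1.85, Lck at 1.89 and Cd8a at 1.99 to Cd3g at 2.22. From the unmodified values, which keep the constant and have no scaling, the ratios were 0.84 for Cd28, 1.03 for Cd3e, 1.04 for Zap70, 1.26 for Cd8a, 1.40 for Cd4, 1.61 for Cd3g and 1.74 for Lck. A pseudocount of 10 likewise brought Cd3e to about 2-fold, Zap70 to a log2 ratio of 1.03, Cd8a to 1.31 and Cd3g to 1.69. With the column minimum itself subtracted, that is, 1 read more, Cd28 was at 1.68 and Zap70 at 2.05. The size of these folds thus depends on the processing. The order carries little weight, since 0 of the 21 pairs of genes had fold intervals that lay apart. The lower bound was above 2-fold for 3 genes, Cd3g, Cd8a and Lck, and above 1 for each of the 7. Among the 17469 genes ranked from the highest log2 ratio, Cd3g was at rank 566 and Cd28 at rank 1381, so these genes were not among the extremes of the comparison.

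**Figure D2:**
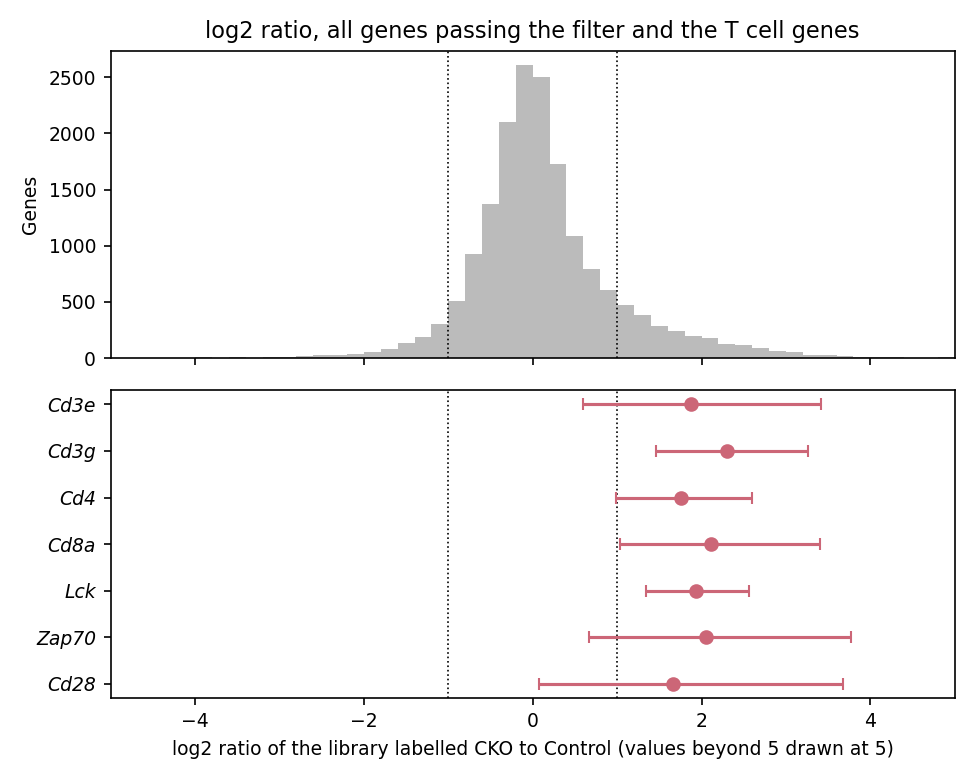
Above, the number of genes by log2 ratio (pseudocount 1) of the CKO-labelled library to control for all 17469 genes that reached 10 scaled reads. Below, the log2 fold without a pseudocount of each T cell gene with its 95% Clopper-Pearson interval; dotted lines mark 2-fold, and each T cell gene lies to the right of the main peak.

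Levels were compared between the genes as scaled reads per kb of the longest transcript. In the control library, Lck had the highest level at 12.8 reads per kb, followed by Cd4 at 5.47, Cd3g at 5.12, Cd8a at 2.56, Cd3e at 2.35, Zap70 at 2.23 and Cd28 at 0.920. Each gene's 95% Poisson interval overlapped that of the next in this order, so no neighbours could be separated. In the CKO-labelled library, Lck was at 48.8 reads per kb, Cd3g at 25.2, Cd4 at 18.5, Cd8a at 11.1, Zap70 at 9.21, Cd3e at 8.63 and Cd28 at 2.91. The interval of Lck there lay apart from that of Cd3g, that of Cd4 from that of Cd8a, and that of Cd3e from that of Cd28, while Cd3g and Cd4, Cd8a and Zap70, and Zap70 and Cd3e overlapped. In the CKO-labelled library, Lck was thus the most abundant of these transcripts per kb and Cd28 the least, while in the control library the interval of Lck reached into that of Cd4, and that of Cd28 into that of Zap70.

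Of 8 genes of all leukocytes, 7 were at least 2-fold higher too. Ptprc encodes CD45, the phosphatase on the surface of leukocytes that also primes Lck, and had 209 control reads and 1373 in the CKO-labelled library, a log2 ratio of 2.13. The reads of the 7 T cell genes were 38.8% of the Ptprc reads in the control library, against 34.7% in the CKO-labelled library. This ratio changed 0.896-fold, with an interval from 0.675 to 1.20. Relative to Ptprc, then, no change of the T cell genes was detectable at this depth. Taken gene by gene, the change relative to Ptprc ran from 0.723-fold for Cd28 to 1.12-fold for Cd3g, and every interval of the 7 included 1. Against the summed reads of 8 pan-leukocyte genes, the change was 1.01-fold (0.793 to 1.31). This sum leans on the genes with the most control reads: without the leading 2 of them, Arhgap15 and Laptm5, the change was 0.760-fold (0.591 to 0.987).

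Set against markers of single leukocyte types, the ratio depended on the type and, for macrophages and NK cells, on which genes were summed. The reads of the T cell genes changed 1.08-fold relative to 15 macrophage markers (interval 0.849 to 1.39). Csf1r, the receptor of the growth factor CSF-1, which was chosen after its values were seen, and Mertk, a receptor for apoptotic cells, held 3841 of the 5960 control reads of that list. Csf1r was at a log2 ratio of 0.51, which was 1.09 from the unmodified values, and Mertk at -0.32. Relative to the other 13 macrophage markers, the T cell genes changed 0.484-fold (0.380 to 0.622), so they were lower relative to these. The same step, leaving out the 2 genes with the most control reads, was applied to each list whose summed reads the T cell genes were divided by, and was chosen after the data were seen. Relative to 11 dendritic cell markers the change was 1.28-fold (0.995 to 1.65), and 1.17-fold without those 2 (0.898 to 1.53). Relative to 8 NK and cytotoxic genes it was 1.51-fold (1.08 to 2.11), and 1.14-fold without those 2 (0.785 to 1.66). Relative to 4 B cell and plasma cell genes it was 3.27-fold (2.31 to 4.62), and with the 2 genes that remained its interval ran from 1.66 to 4.31. Relative to the B cell genes read here, the T cell genes were therefore higher in the CKO-labelled library with either sum.

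**Figure D3:**
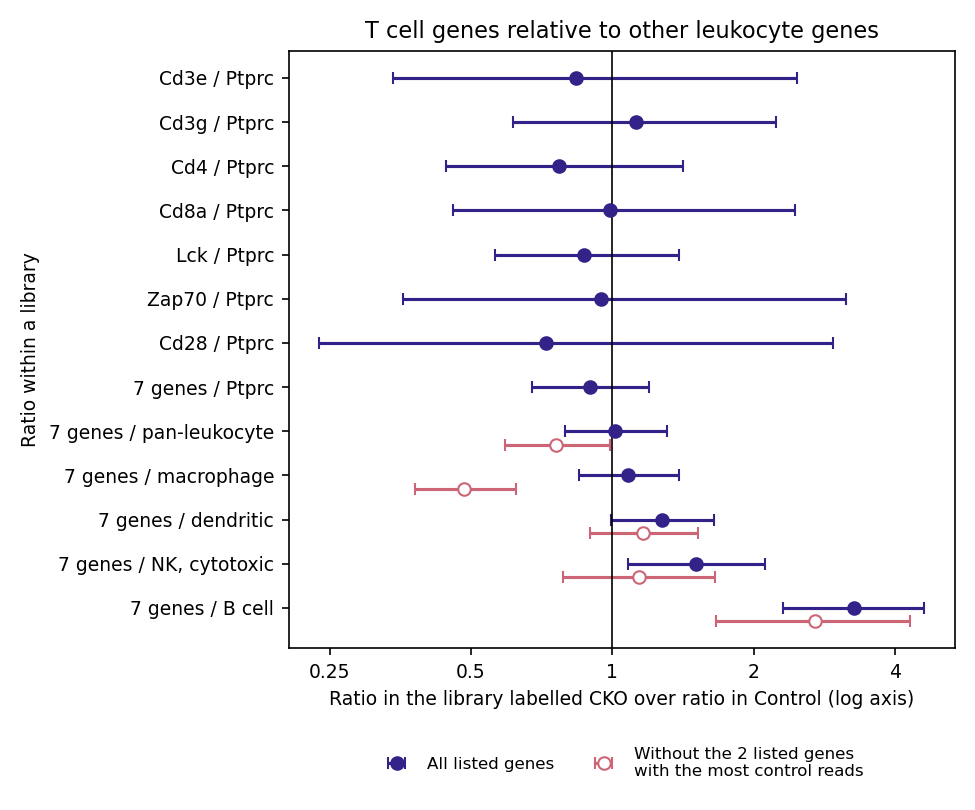
Change, between the control library and the CKO-labelled library, of the reads of T cell genes relative to Ptprc or to the summed reads of other leukocyte lists, on a log axis with 95% intervals for counting error. Filled points sum all listed genes and open points leave out the 2 with the most control reads: the macrophage ratio lies at 1.08 and 0.484, and both B cell ratios lie above 1.

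The gene lists are described by counts and medians, and the most abundant gene of a list is the gene with the most reads in the CKO-labelled library, not divided by length. Each count has to be read against the 13.4% of all genes past the minimum that were at least 2-fold higher. At the level of the T cell genes this share was 26.8%. Genes that pass the minimum only in the CKO-labelled library are high there and can add to such counts. Equal totals moved the median log2 ratio of all genes from 0.02 to 0.44, and the unmodified values moved it to 0.57, with neither the constant removed nor the reads scaled. Among 28 other genes of the T cell receptor and its signalling, 24 had values and 23 passed the minimum. Of these, 13 were higher by 2-fold or more and 1 lower by 2-fold or more, at a median log2 ratio of 1.18, which was 0.99 from the unmodified values. Grap2, an adaptor of the LAT complex, was the highest with 11 and 118 reads and a log2 ratio of 2.73. Cd5, an inhibitory receptor of T cells, had 3 and 38 reads, and Thy1, a surface protein of mouse T cells and of some stromal cells, had 28 and 206. Of the list, 13 of 23 were thus past 2-fold upward, as the CD3 chains and kinases were. Cd247, the zeta chain, had 11 and 32 reads, which gave a log2 ratio of 0.90, with an interval from -0.07 to 2.09, and 1.30 under equal totals. Of the 24, 18 reached 10 reads in the control kidney. The rest of the 23 passed the minimum only in the CKO-labelled library, where they are high, and all of these were past 2-fold. The count of 13 therefore leans on them. The list had 5 members with at least 100 control reads. Of these, Fyn was at 0.39, Prkcq at 0.31, Rasgrp1 at 0.49, which was 1.01 from the unmodified values, and Bcl11b at 0.29. Cd5, Thy1 and these 4 were chosen after their values were seen. The fifth, Ptpn22, a phosphatase that restrains Lck and ZAP-70, had 3296 control reads and 1870 in the CKO-labelled library, a log2 ratio of -1.40. It was the 1 gene of the list lower by 2-fold, and it was not so under equal totals, at -0.98, or from the unmodified values, at -0.79. It held 3296 of the 4669 reads of this list in the control library. The summed reads of the list, 4669 and 5360, were therefore lower after scaling, at 0.765-fold (interval 0.736 to 0.796), against the direction of the median. Divided by the library totals instead, the sum was 120.2 CPM in the control library and 123 CPM in the CKO-labelled library. By that measure the sum was not lower, so its direction depends on the scaling. Relative to this sum the 7 T cell genes changed 5.13-fold (4.03 to 6.60), and without Ptpn22 and Fyn, the 2 genes with the most control reads, 2.19-fold (1.71 to 2.83). For Ptpn22, which kidney cells its reads came from was not tested. Trat1, Themis, Ubash3a and Sh2d1a were not analysed here.

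The constant genes of the receptor chains did not differ alike. Trbc1 and Trbc2, the constant genes of the beta chain, had 13 and 8 control reads and 44 and 60 in the CKO-labelled library, with log2 ratios of 1.12 and 2.19. Trac, the constant gene of the alpha chain, had 99 and 109 reads, which gave a log2 ratio of -0.44, with an interval from -0.85 to -0.04. This ratio was -0.03 under equal totals and turned to 0.26 from the unmodified values. The beta chain genes thus went with the CD3 chains and the alpha chain gene did not. Trac reads were 471% of the summed Trbc1 and Trbc2 reads in the control library, against 105% in the CKO-labelled library, a 0.222-fold change (interval 0.123 to 0.392) that no scaling alters. Likewise Cd3e and Cd3g together had 19.2% of the Trac reads in the control library, against 118% in the CKO-labelled library, a 6.17-fold change (3.46 to 11.3). Trbc1 and Trbc2 are near-identical copies, so the split of reads between them is uncertain and reads that match both may not have been counted.

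Genes of costimulation were mixed. Of 13 costimulatory and inhibitory receptors, 10 had values, and 6 of the 10 were higher by 2-fold or more and 0 lower by 2-fold or more, at a median log2 ratio of 1.51. Only 5 of the 10 reached 10 reads in the control kidney. The rest passed the minimum only in the CKO-labelled library, where they are high, and all of these were past 2-fold. The count therefore leans on them. Pdcd1, which encodes the inhibitory receptor PD-1, had 2 control reads and 28 in the CKO-labelled library, 9.33-fold higher with an interval from 2.35 to 80.9. Its log2 ratio was 2.71, which fell to 1.26 with a pseudocount of 10 and to 1.09 from the unmodified values. Icos, a relative of CD28, had 23 and 55 reads, which gave a log2 ratio of 0.65 with an interval from -0.05 to 1.44, and 1.06 under equal totals. Tigit, an inhibitory receptor of T and NK cells, held 160 of the 242 control reads of the list and 195 in the CKO-labelled library and had a log2 ratio of -0.30, which turned to 0.12 under equal totals and to 0.34 from the unmodified values. Ctla4, Cd40lg and Cd96 were not analysed here. Among 5 ligands of the CD28 family receptors, 4 had values and 1 was at least 2-fold higher, with a median of 0.69. Under equal totals and from the unmodified values 3 of the 4 were, with medians of 1.11 and 1.17. The 1 was Cd86, a ligand of CD28 on activated antigen-presenting cells, with 45 and 235 reads and a log2 ratio of 1.78. Cd80, the other CD28 ligand, had 7 and 15 reads, which gave a log2 ratio of 0.46, with an interval from -0.87 to 2.05, and Icosl, the ligand of ICOS, had 248 and 571 reads and a ratio of 0.62, which was 1.03 under equal totals and 1.14 from the unmodified values. Pdcd1lg2 was not analysed here.

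For T cell subsets beyond CD4 and CD8, 24 transcription factor and receptor genes were read, of which 20 had values and 17 passed the minimum. Of the 17, 8 were higher by 2-fold or more and 0 lower by 2-fold or more, at a median log2 ratio of 0.98. Under equal totals it was 12 of 18 at a median of 1.36. Il2rb, the beta chain of the IL-2 receptor on T and NK cells, had 23 and 148 reads and the highest log2 ratio at 2.05. Il2ra, the alpha chain found on activated and regulatory T cells, had 11 and 58 reads and a ratio of 1.72. Both IL-2 receptor genes were thus past 2-fold. Gata3, a factor that defines Th2 helper cells, had 237 and 633 reads and a ratio of 0.83, which was 1.25 under equal totals and 1.33 from the unmodified values. Tbx21 of Th1 cells had 7 and 13 reads and did not reach the minimum. Ikzf2, expressed in many regulatory T cells, had 114 and 279 reads and a ratio of 0.70, which was 1.12 and 1.15 in the same settings. Bcl6 of follicular helper cells was the lowest at -0.42, at 0.00 under equal totals and 0.18 from the unmodified values, and Zbtb7b of the CD4 lineage, the most abundant with 2500 and 3004 reads, was at -0.32, which turned to 0.10 under equal totals and 0.27 from the unmodified values. Of the 20, 15 reached 10 reads in the control kidney, and Gata3, Bcl6 and Zbtb7b each had at least 237 there. Which kidney cells these reads came from was not tested. Eomes, Cxcr5, Ccr8 and Il23r were not analysed here. For gamma delta T cells, 1 of 10 listed genes had values: Sox13 had 1045 and 1524 reads, with a log2 ratio of -0.04 that turned to 0.38 under equal totals and 0.54 from the unmodified values. Trdc and the other gamma delta receptor genes of the list, with Il17a and Scart1, were not analysed here.

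Markers of other leukocytes were read beside the T cell genes. Of 15 macrophage markers, 12 were higher by 2-fold or more and 0 lower by that much, with a median log2 ratio of 2.67 and a sum of 5960 control reads and 32533 in the CKO-labelled library. Lyz2, lysozyme, had 518 and 9836 reads and led the list in the CKO-labelled library, whereas Csf1r led it in the control library with 2244 reads and had 4803 in the other. The ratios ran from Mertk at -0.32, which turned to 0.10 under equal totals and 0.27 from the unmodified values, to Ms4a7 at 4.33. Ms4a7 had 6 and 210 reads and passed the minimum only in the CKO-labelled library. Its ratio was 3.23 with a pseudocount of 10 and 2.67 from the unmodified values. Most macrophage markers were thus higher along with the T cell genes. Of 11 dendritic cell markers, 10 were at least 2-fold higher, with a median of 1.74 and a sum of 1075 and 4967 reads. Bst2, also an interferon-induced gene, had 290 and 2083 and led in the CKO-labelled library, Zbtb46, with 345 and 660, led in the control library, and the ratios ran from 0.35 for Zbtb46 to 2.57 for Itgax. Of 8 pan-leukocyte genes, 7 were at least 2-fold higher, with a median of 2.24 and a sum of 1317 and 7658 reads. Laptm5 led in the CKO-labelled library with 240 and 1462 and Arhgap15 in the control library with 381 and 803, and the ratios ran from 0.49 for Arhgap15, which was 1.04 from the unmodified values, to 2.73 for Cd53. At least 10 control reads were found for 14 of the 15 macrophage, 9 of the 11 dendritic and 8 of the 8 pan-leukocyte genes, so these genes are also expressed in the control kidney. Most of the macrophage, dendritic cell and pan-leukocyte genes read here were therefore at least 2-fold higher along with the T cell genes. Their part in the result was not tested.

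Lymphocyte markers outside the T cell genes were more mixed. Of 12 NK and cytotoxic genes, 8 had values and 7 passed the minimum, of which 4 were at least 2-fold higher, with a median log2 ratio of 1.06 and a sum of 100 and 390 reads. From the unmodified values 2 of 8 were, with a median of 0.85. Ccl5, a chemokine of cytotoxic T cells and NK cells, had 16 and 166 reads, the most in the CKO-labelled library but not in the control library, and a ratio of 2.72. Gzma, a granzyme, was the lowest with 18 and 14 reads and a ratio of -0.88, which turned to 0.29 from the unmodified values. Klrd1, Klre1, Klri2 and Gzmb were not analysed here. Of 12 B cell and plasma cell genes, 4 had values and 0 were at least 2-fold higher or lower, with a median of 0.33 and a sum of 107 and 193 reads. Jchain was the highest at 0.89, which was 1.30 under equal totals, Mzb1 the lowest at -0.22, which turned to 0.19 under equal totals and 0.45 from the unmodified values, and Mzb1 had 42 and 54 reads beside 27 and 56 for Cr2, so that Mzb1 led in the control library and Cr2 in the CKO-labelled library. The defining B cell genes Ms4a1, Cd79a and Pax5 were not analysed here, nor were Cd22, Blk, Fcrla and Tnfrsf13c, so the list leans on genes that are not the usual B cell markers. Of 8 neutrophil genes, 3 had values and 2 were at least 2-fold higher, with a median of 1.64 and a sum of 42 and 260 reads. Csf3r was the most abundant with 22 and 177 and the highest at 2.37, and S100a8 was the lowest at 0.77. Ly6g, Mpo, Camp, Retnlg and Cxcr2 were not analysed here. In the control kidney, 6 of the 8 NK and cytotoxic, 4 of the 4 B cell and 2 of the 3 neutrophil genes reached 10 reads. The part of these cells in the levels of Lck, Zap70 and the other T cell genes was not tested.

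**Figure D4:**
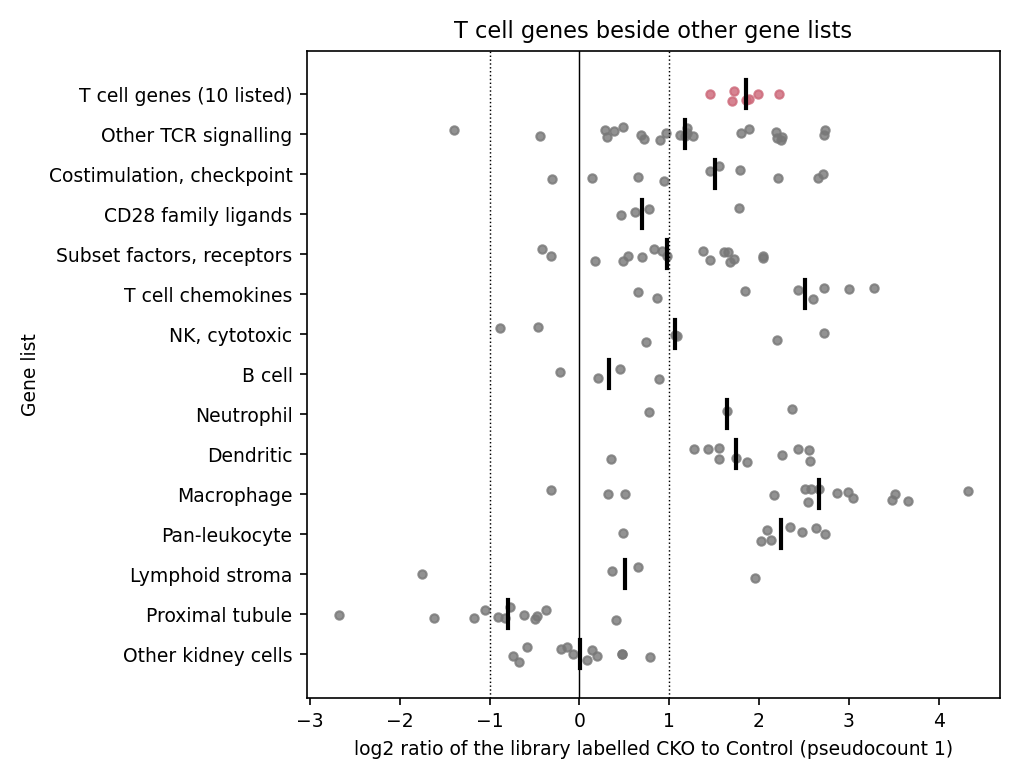
The log2 ratio (pseudocount 1) of the CKO-labelled library to control for each gene that passed the minimum, by gene list, with the list's median as a bar and 2-fold as dotted lines. The T cell genes lie between 1.45 and 2.22, macrophage genes reach 4.33 for Ms4a7 with its 6 control reads, and B cell genes lie below 1.

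Most of the chemokines read here that attract T cells were also at least 2-fold higher. Of 9 listed, 8 had values and 6 were at least 2-fold higher, with a median log2 ratio of 2.51 and a sum of 1893 and 6066 reads. Only 5 of the 8 reached 10 reads in the control kidney. The rest passed the minimum only in the CKO-labelled library, where they are high, and all of these but Ccl19 were past 2-fold. The count therefore leans on them in part. Under equal totals 8 of the 8 were at least 2-fold higher, and from the unmodified values 7 were, with a median of 1.61. Cxcl10, a ligand of the receptor CXCR3 on activated T cells, had 40 and 595 reads and the highest ratio at 3.28. Ccl19, a ligand of CCR7, was the lowest at 0.65 with 6 and 15 reads, and Cxcl16, the ligand of CXCR6, was the most abundant with 1776 and 4833 and a ratio of 0.86. Ccl5 and Ccl19 are also counted in other lists, and Ccl20 was not analysed here. Genes of lymph nodes and lymphoid stroma, which would be read if lymph node tissue lay in a sample, had 5 of 7 with values and 4 past the minimum. Their sum was 154 and 398 reads, with 1 gene at least 2-fold higher, 1 at least 2-fold lower and a median of 0.51, and under equal totals 3 of 5 were higher, with a median of 1.04. Ltb, a cytokine gene of lymphocytes, was at 1.95, Cxcl13 had 18 and 7 reads and was at -1.75, which turned to 0.13 from the unmodified values, and Ccl21a was the most abundant with 99 and 191 reads. Fcer2a and Glycam1 were not analysed here, and the part of lymphoid tissue in the levels of the T cell genes was not tested.

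Several markers of the proximal tubule, the targeted segment, were lower. Of 12, 0 were higher by 2-fold or more and 4 lower by 2-fold or more, at a median log2 ratio of -0.80 and a sum of 688238 control reads and 521283 in the CKO-labelled library. Under equal totals and from the unmodified values 2 were lower by 2-fold or more, with medians of -0.38 and -0.21. The ratios ran from -2.68 for Cyp2e1 to 0.41 for Slc5a12, and Slc34a1, the most abundant, was at -1.17, which was -0.75 under equal totals and -0.58 from the unmodified values. Of 12 markers of other kidney cells, 0 were at least 2-fold higher or lower and the median was 0.01, which was -0.02 with the median log2 ratio of genes past the minimum set to 0 and -0.01 with the column minimum subtracted. It was 0.42 under equal totals, with 1 gene at least 2-fold higher, and 0.59 from the unmodified values, with 3. Their sum was 156439 and 284196 reads, Umod was the most abundant, and the highest ratio was 0.79 for Aqp2. The T cell genes were 3.24-fold higher relative to the summed markers of other kidney cells (interval 2.56 to 4.15) and 7.78-fold higher relative to the proximal tubule markers (6.13 to 9.97). Umod held 90047 of the 156439 control reads of the former sum. Without the 2 genes with the most control reads, the changes were 3.73-fold (2.94 to 4.78) and 7.57-fold (5.97 to 9.71). The part of a smaller proximal tubule share of the RNA in the T cell result was not tested.

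With 2 libraries, the pattern of a gene across samples is 1 number, its log2 ratio. Among 13947 genes with a mean of at least 50 scaled reads, the 3 nearest to Cd3e were Elf3 with 426 and 2102 reads and a ratio of 1.72, Gm10639 with 348 and 1720 reads and 1.72, and Rgs4 with 57 and 284 reads and 1.71. In all, 137 genes lay within 0.1 of Cd3e, so likeness by this measure singles out no gene.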

How the data were processed

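The authors used STAR 2.7.3a for alignment, HTSeq for counting and DESeq2 for normalization, and the submitters' notes name mm10. The deposited values, whole numbers that the authors call normalized counts, follow no standard unit and were recorded as a score. FPKM from Cufflinks 2.2.1 was not used. The lowest values were 35 (control) and 51 (CKO). The column minimum minus 1 (34 and 50) was subtracted, so the lowest gene has 1 read and none has 0. That the values are reads plus a constant is inferred from the empty range below the minimum, and the constant is not settled to within 1 read. What was left was then treated as reads. If the authors' normalization had also rescaled it, the CPM and the intervals would be approximate. Scaling used the median gene ratio of control to CKO, 0.667, a ratio of small whole numbers, as the factor for CKO reads. The value compared was log2((CKO + 1)/(Control + 1)) for genes reaching 10 scaled reads in a library, and the threshold was 2-fold.

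No test between groups was made. Fold intervals are 95% Clopper-Pearson intervals of the CKO share of the reads, read numbers have exact Poisson intervals, and ratios within a library have conditional odds-ratio intervals. The steps were tested on simulated data. Lengths are of the longest GENCODE M21 transcript, and positions and promoters are from RefSeq (GRCm38.p6). Of 196 listed entries, 152 had values.

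The T cell genes and the gene lists were chosen with earlier results of these data known. Named are the T cell genes, Zc3h12b, Ptprc, Cd247, the receptor constant genes, 9 subset genes, the highest, lowest and most abundant (in the CKO library) gene of every other list, and the 3 genes nearest to Cd3e; others are marked in the text. Some genes that this rule covers are not reported here. Alternatives were pseudocounts of 0.1 and 10, no minimum or 50 scaled reads, 3 other scalings, the values as deposited, the column minimum itself subtracted, thresholds of 1.5-fold and 4-fold, and pan-leukocyte genes in place of Ptprc. A scaling by genes with at least 50 reads in both libraries, sums without the 2 listed genes with the most control reads, and list counts under each scaling were chosen after seeing the data. Python 3.11.15, numpy 2.4.6, pandas 2.3.3, scipy 1.17.1 and matplotlib 3.10.9 were used.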

Additional observations from a re-analysis of the deposited data

How the results depend on the processing

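No paired analysis was possible because there was 1 library in each group. The log2 ratios of the 7 T cell genes stayed above 0 in all 66 values computed under the alternatives, from 0.70 to 2.63, and 64 of them were at least 1. The exceptions were both Cd28. A change of the minimum alone cannot alter a gene's ratio, so the values from those settings repeat the main ones. The median of the 7 genes fell to 1.31 at pseudocount 10, and was 2.25 under equal totals and 1.26 from the values as deposited. At least 2-fold higher were 6 of them with a pseudocount of 10 and with the values as deposited, and 3 with at least 50 scaled reads, where only 3 passed. At a threshold of 4-fold, 1 passed by the log2 ratio with its pseudocount of 1. The folds given without a pseudocount were above 4 for Cd3g, Cd8a and Zap70. Of all genes, 2334 were higher and 934 lower (71.4% of these higher). Equal totals gave 3870 and 437 (89.9%) and a median log2 ratio of 0.44 over all genes, and the values as deposited gave 3574 and 131 (96.5%) and a median of 0.57. The 1.5-fold threshold gave 3801 higher and 2423 lower, the 4-fold threshold 749 higher and 166 lower, and at least 50 scaled reads left 617 lower, from fewer genes tested. The median of the costimulation list reversed to -0.30 with at least 50 scaled reads, where Tigit alone passed, and Cxcl13 reversed to 0.13 with the values as deposited, which keep the constants. The T cell genes relative to Ptprc moved within the interval, to 0.963 with the column minimum subtracted and 1.01 against pan-leukocyte genes. Without the 2 listed genes with the most control reads, the change relative to macrophage genes went from 1.08 to 0.484 and that relative to pan-leukocyte genes from 1.01 to 0.760. Of the other values for named genes and lists, these included, 136 moved and 697 did not. The 697 include ratios of single genes under a changed minimum, which could not move. The scaling chosen after seeing the data gave 0.683 and a T cell median of 1.89. Single-digit control reads of Cd3e, Cd8a, Zap70 and Cd28 limit how closely their folds are known.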
